A study of Mus musculus with 36 samples.

Results

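The goblet cell genes followed here were the 9 genes Muc2, Tff3, Agr2, Fcgbp, Zg16, Spdef, Atoh1, Muc4 and Muc1, chosen by name. Each was represented by its brightest probe set over all 36 arrays. Of the 9 genes, 8 had a probe set under their name among the 17097 genes measured, and Muc2 was not analysed here. On GRCm38.p6 the 8 measured genes lie at chr17:31125306-31129611 (Tff3), chr12:35992925-36004081 (Agr2), chr7:28071236-28120864 (Fcgbp), chr7:127050156-127052675 (Zg16), chr17:27714446-27731003 (Spdef), chr6:64729125-64731245 (Atoh1), chr16:32735886-32782391 (Muc4) and chr3:89229056-89233381 (Muc1). The series measured total RNA from mouse colon in mice without Il17rc (IL-17RC KO, written KO), which encodes a receptor subunit for IL-17A and IL-17F, and in wild-type mice (WT). Mice were 6 to 8 weeks old by the labels, which name neither strain nor sex. The labels give this same age at every stage, tumors at day 63 included, so age at sampling may differ between stages. The colon carcinogen azoxymethane (AOM) was injected, and 3 cycles followed, each with 5 days of 3% dextran sulfate sodium (DSS), which injures the colon lining, and 14 days of plain water. There were 4 untreated arrays (day 0), 4 at day 7, 4 at day 15 and 6 of tumors (day 63) in KO mice, and the same numbers in WT mice, so 8 groups. The labels give no DSS for the untreated mice, and days 7 and 15 are too early for all 3 cycles to have ended. No label says how tumors were separated from the surrounding colon.

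Goblet cells are the mucus-secreting cells of the intestinal epithelium. Muc2 forms the gel of the colonic mucus layer, which keeps bacteria away from the epithelium. Zg16, a lectin that binds bacteria, Fcgbp, a large protein bound into the gel, and Tff3, a trefoil peptide linked to epithelial repair, are secreted with it. Agr2 is a protein disulfide isomerase of the endoplasmic reticulum that is needed to make Muc2. Atoh1 is the transcription factor that commits intestinal progenitors to the secretory lineage and is held down by Notch signalling, and Spdef is a transcription factor that acts after it in goblet cell maturation. Muc4 and Muc1 are mucins anchored in the cell membrane, made by goblet cells and by other epithelial cells.

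Promoters are shown for Atoh1, Agr2 and Fcgbp, because Atoh1 had a Pearson's r of 0.76 with Agr2 and 0.75 with Fcgbp over the 36 arrays, and for Muc1, with r of -0.20 to 0.02 with these 3. Agr2 and Fcgbp had an r of 0.41 with each other. Without the day 15 arrays numbered 4, these values were 0.67, 0.68, -0.48 to -0.43 and 0.22. RefSeq annotation of GRCm38.p6 gave promoters for 7 of the 9 genes, as 250 bases before and 50 bases after the start site. All 4 lie on the plus strand, Atoh1 at chr6:64728875-64729174, Agr2 at chr12:35992675-35992974, Fcgbp at chr7:28070986-28071285 and Muc1 at chr3:89228806-89229105. Each window ends inside the first transcribed bases of its gene. The letters TATAAA (the TATA box), CAGCTG (an E-box, the kind of element that proteins such as Atoh1 bind) and GGGCGG (the GC box) were searched on both strands, and no matches shown overlap. Capitals mark the matches.
Atoh1: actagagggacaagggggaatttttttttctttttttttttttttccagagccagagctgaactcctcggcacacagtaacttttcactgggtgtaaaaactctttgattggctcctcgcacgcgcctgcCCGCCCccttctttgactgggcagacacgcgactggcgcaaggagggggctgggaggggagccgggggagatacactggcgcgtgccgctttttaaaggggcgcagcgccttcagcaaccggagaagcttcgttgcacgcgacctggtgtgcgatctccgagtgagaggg
Agr2: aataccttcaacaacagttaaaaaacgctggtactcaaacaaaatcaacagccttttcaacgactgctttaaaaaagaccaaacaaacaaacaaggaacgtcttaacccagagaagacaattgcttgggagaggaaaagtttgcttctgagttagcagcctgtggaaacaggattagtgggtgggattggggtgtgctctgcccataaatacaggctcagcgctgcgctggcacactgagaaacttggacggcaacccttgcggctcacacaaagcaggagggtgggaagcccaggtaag
Fcgbp: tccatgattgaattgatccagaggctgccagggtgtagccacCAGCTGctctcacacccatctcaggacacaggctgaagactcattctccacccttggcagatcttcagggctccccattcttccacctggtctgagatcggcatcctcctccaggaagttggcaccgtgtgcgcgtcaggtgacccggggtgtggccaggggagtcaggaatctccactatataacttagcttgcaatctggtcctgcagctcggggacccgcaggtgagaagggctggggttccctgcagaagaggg
Muc1: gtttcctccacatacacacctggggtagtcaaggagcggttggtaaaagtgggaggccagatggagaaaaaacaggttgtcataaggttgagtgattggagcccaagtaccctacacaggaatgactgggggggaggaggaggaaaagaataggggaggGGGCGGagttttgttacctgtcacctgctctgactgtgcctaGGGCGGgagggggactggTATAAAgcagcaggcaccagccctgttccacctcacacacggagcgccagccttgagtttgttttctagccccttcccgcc
Of 32851 promoters of this length, 13.6% held TATAAA, 16.3% held CAGCTG and 35.7% held GGGCGG. Muc1 held TATAAA starting 31 bases before the start site and GGGCGG at 91 and 49 bases before it. Fcgbp held CAGCTG at 208 bases before its start. Atoh1 held a GC box, read on the opposite strand, at 120 bases before its start, and Agr2 held none of the 3 motifs in this window.

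Values are deposited intensities per probe set, on a linear scale. Array medians lay between 14 and 16, so intensities near these values are close to background. Il17rc, the targeted gene, lay between 7 and 44 on all KO arrays but replicate 1 labelled KO day 7, which read 331, against 76 to 515 on the WT arrays. That array and replicate 2 labelled KO day 7 are among 7 arrays with Krt5, a keratin of squamous epithelium, above 100. The others are replicates 1 and 4 of untreated WT, 1 and 4 of WT day 7 and 2 of KO tumor. Replicate 4 at day 15 stood apart in both genotypes, with the highest readings of the neutrophil gene S100a8 of all arrays, 6239 in KO and 5585 in WT. Its Epcam was 5268 in KO and 5544 in WT. Epcam, a surface protein of all intestinal epithelium, lay between 5268 and 7330 on all arrays. The summed intensity of a list of genes of the whole epithelium, Epcam among them, was lower in KO tumors. It ran from 47496 to 56484 there, against 59706 to 64559 in untreated KO colon. In WT this sum ran from 51245 to 55995 in tumors, against 45151 to 60342 in untreated colon. At day 15 it ran from 41847 to 59386 in KO and from 44051 to 61999 in WT. In bulk tissue, fewer goblet cells and less RNA per goblet cell cannot be told apart.

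Tumors had less Fcgbp than untreated colon in both genotypes and more Muc1 in WT, and the other 6 genes were not called in either genotype. Both WT calls were lost when the letter or the number of the sample's title code was a block. Of the 8 genes measured, 1 fell in KO tumors against untreated KO colon, where 20.8% of all 17097 genes were called, 10.8% higher and 9.92% lower. In WT tumors against untreated WT colon 1 rose and 1 fell, where 22.8% of all genes were called, 12.6% higher and 10.2% lower. Calls are at an adjusted p under 0.05 from limma, a linear model across all genes, with Benjamini-Hochberg adjustment. The median log2 difference of the 8 genes was -0.39 in KO and 0.07 in WT, beside 0.01 and 0.02 for all genes.

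**Figure D1:**
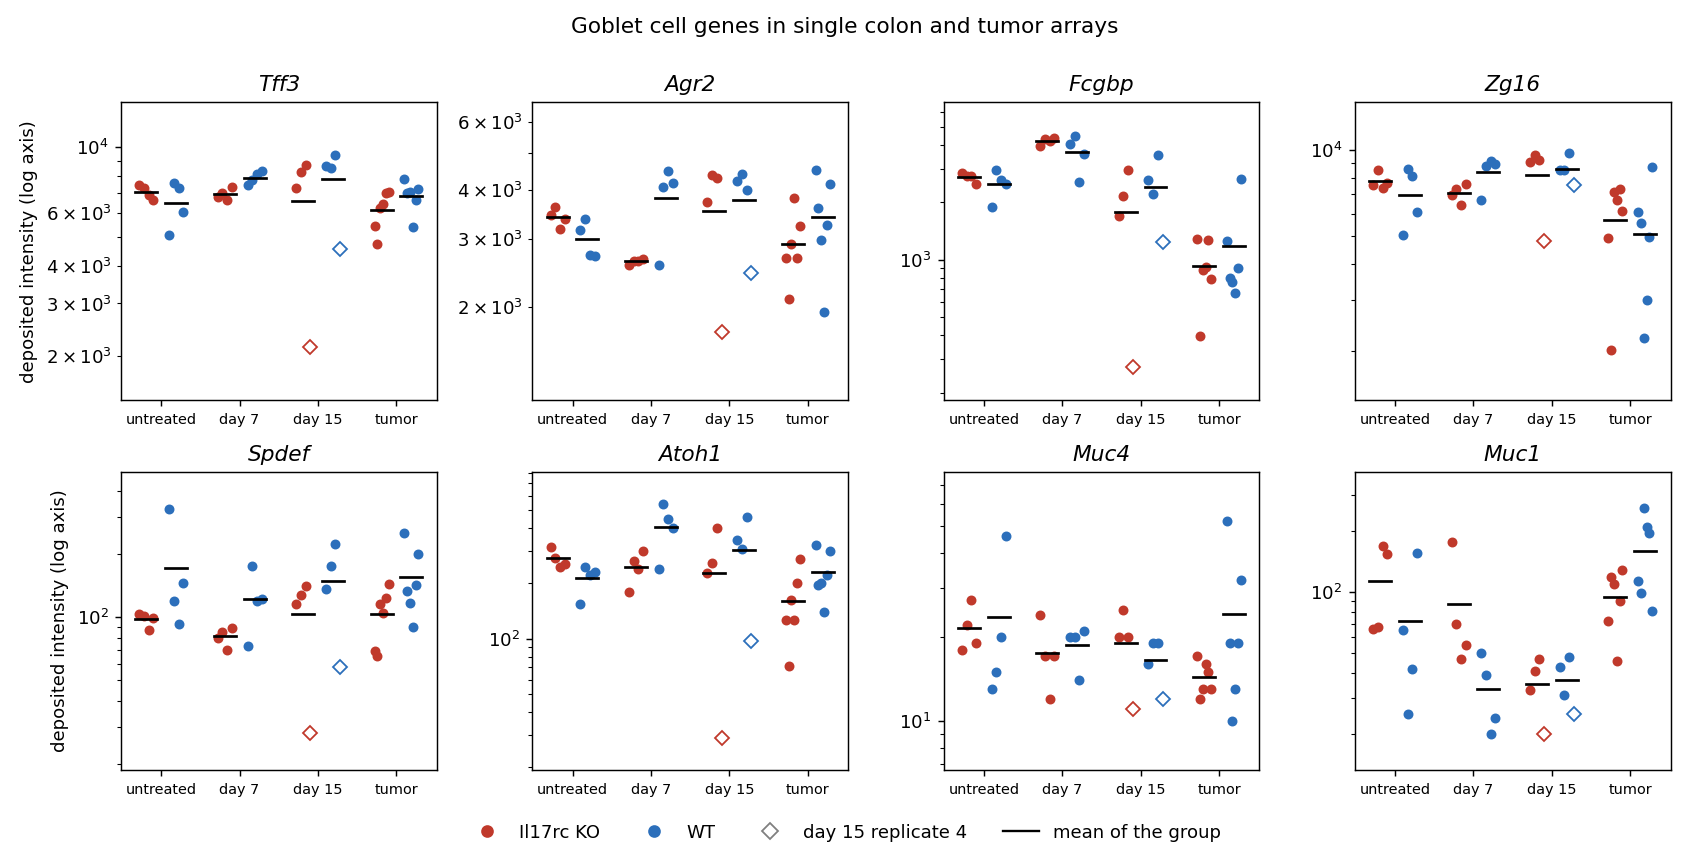
Deposited intensity (log axis) of the 8 measured genes on each of the 36 arrays, by stage, with KO left of WT, a bar at each group's mean and an open diamond for replicate 4 at day 15. Fcgbp lay between 399 and 1281 in KO tumors, below all untreated KO arrays, and Muc1 lay between 81 and 260 in WT tumors, above all WT day 15 arrays.

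Fcgbp ran from 399 through a median of 900 to 1281 in KO tumors, against 2841, 2757, 2761 and 2496 in untreated KO colon. No KO tumor reached the lowest untreated KO array. The means were 922 ± 329 (SD, n = 6) in KO tumors and 2714 ± 150 (SD, n = 4) in untreated KO colon. The log2 difference was -1.61 ± 0.43 (SE, limma), a 3.06-fold lower level, with an adjusted p of 0.00583. In WT, Fcgbp ran from 672 through a median of 854 to 2654 in tumors, against 1883, 2966, 2609 and 2499 in untreated colon. Here the groups overlapped, since WT tumor replicate 6 read 2654 and the next tumor 1261. The log2 difference was -1.23 ± 0.43 (SE) with an adjusted p of 0.0347 (limma), and the adjusted p was 0.0859 with the code's letter and 0.0697 with its number as a block. With the 7 Krt5-high arrays left out it was -1.40 with an adjusted p of 0.0907 in WT, and -1.39 with an adjusted p of 0.0359 in KO. The change did not differ detectably between genotypes, with a difference of -0.38 ± 0.60 (SE) in the log2 change (adjusted p 0.939, limma).

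Muc1 rose in WT tumors. It ran from 81 through a median of 154 to 260 in WT tumors, against 65, 25, 42 and 155 in untreated WT colon, so 1 untreated array lay inside the tumor range. The log2 difference was 1.31 ± 0.44 (SE, adjusted p 0.028, limma). The adjusted p was 0.136 with the code's letter, 0.0988 with its number and 0.0576 with the replicate number as a block. In KO tumors it ran from 46 through a median of 100 to 129, against 66, 67, 168 and 153 in untreated KO colon. KO tumors lay within the span of KO untreated arrays apart from the lowest, and the log2 difference was -0.25 ± 0.44 (SE, adjusted p 0.779, limma). The difference of these changes, KO minus WT, was -1.56 on the log2 scale with a raw p of 0.0166 in the limma fit and an adjusted p of 0.428, so it did not pass. The KO and WT untreated arrays of Muc1 are spread widely, and leaving out untreated WT replicate 2 alone took the WT difference to 0.91 with an adjusted p of 0.17. With the 7 Krt5-high arrays left out it was 2.10 with an adjusted p of 0.0025. In that setting the KO difference was -0.34 (adjusted p 0.631). The KO minus WT difference of the changes was -2.44 and did not pass (adjusted p 0.0818, limma).

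The lectin gene Zg16 had lower values in tumors that did not pass in either genotype on its own against untreated colon. It ran from 2020 through 6414 to 7321 in KO tumors, against 7520, 8541, 7388 and 7677 in untreated KO colon. Every KO tumor lay below every untreated KO array, with a log2 difference of -0.52 ± 0.29 (SE, adjusted p 0.222, limma). In WT it ran from 2223 through 5274 to 8709 in tumors, against 5064, 8577, 8129 and 6092 in untreated colon, with overlap. The WT log2 difference was -0.54 ± 0.29 (SE, adjusted p 0.181, limma). Without the Krt5-high arrays the Zg16 difference was -0.25 in KO (adjusted p 0.575, limma) and -0.85 in WT (adjusted p 0.0563). The KO minus WT difference of these changes was then 0.60 and did not pass (adjusted p 0.832, limma). The comparison averaged over both genotypes, with all arrays, was added after the data were seen. There Zg16 fell by 0.53 with an adjusted p of 0.0413 and Fcgbp fell by 1.42 with an adjusted p of 0.000357 (limma). The Zg16 call was lost with the code's letter (adjusted p 0.0584) or number (adjusted p 0.083) as a block and in 13 of 33 alternatives in all. In that averaged comparison 2 of 8 genes were called, where 33.1% of all genes were and 14.8% were lower.

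The other genes were not called in tumors against untreated colon in the main fit. In KO, Atoh1 (adjusted p 0.0454, limma) and Muc4, close to background (adjusted p 0.0088), were each called in 1 of 23 alternatives. Tff3 ran from 4756 to 7066 in KO tumors, against 6644 to 7431 in untreated KO colon, and from 5394 to 7811 in WT tumors, against 5075 to 7575 in untreated WT colon. Agr2 ran from 2092 to 3814 in KO tumors, against 3177 to 3624 in untreated KO colon, and from 1943 to 4502 in WT tumors, against 2713 to 3379 in untreated WT colon. Tumors and untreated colon overlapped for both genes in both genotypes. The 95% intervals of the log2 differences were -0.67 to 0.29 for Tff3 and -0.66 to 0.24 for Agr2 in KO, and -0.36 to 0.60 for Tff3 and -0.27 to 0.63 for Agr2 in WT. The transcription factor Atoh1 ran from 71 through 145 to 271 in KO tumors, against 317, 276, 247 and 255 in untreated KO colon, a log2 difference of -0.90 ± 0.48 (SE, adjusted p 0.212, limma). All but 1 KO tumor lay below the untreated KO arrays. In WT tumors Atoh1 ran from 140 through 211 to 323, against 154, 247, 222 and 230 in untreated WT colon, with full overlap. Spdef ran from 65 to 144 in KO tumors, against 87 to 104 in untreated KO colon, and from 90 to 252 in WT tumors, against 93 to 330 in untreated WT colon.

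**Figure D2:**
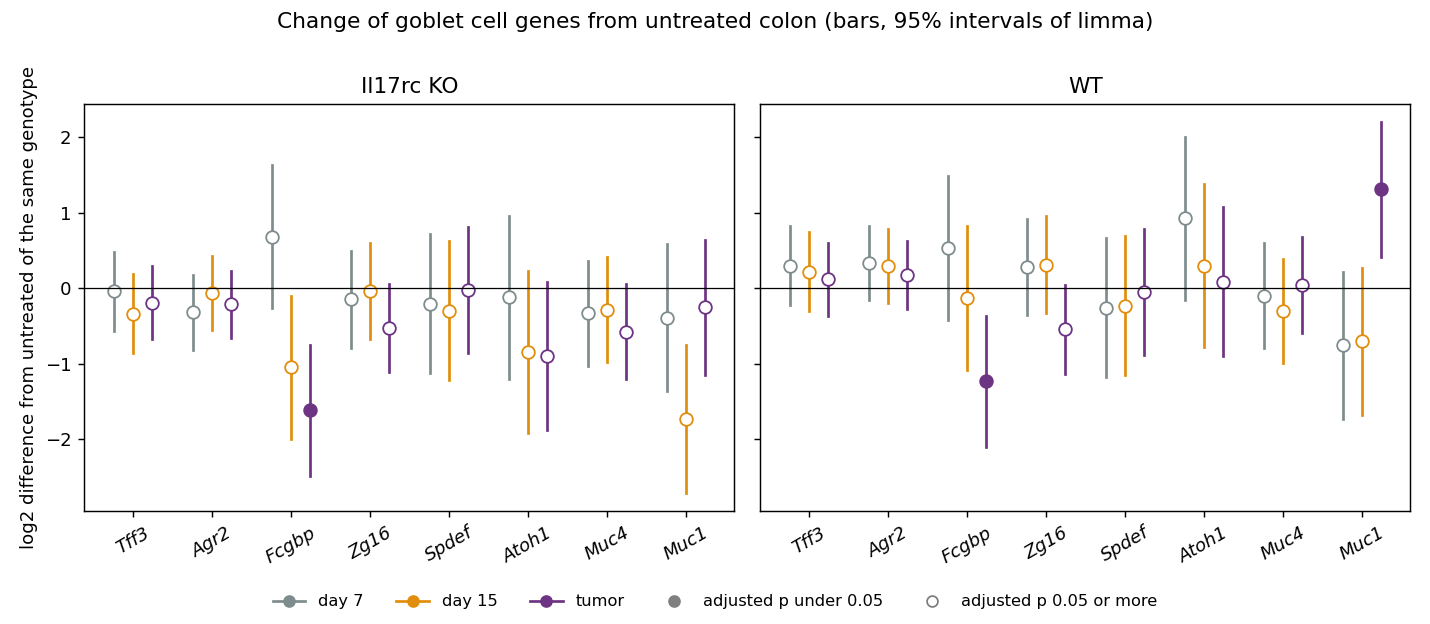
Log2 difference from untreated colon of the same genotype for the 8 genes at day 7, day 15 and in tumors, in KO (left) and WT (right), with 95% intervals from limma and filled points where the adjusted p was under 0.05. The 3 filled points are Fcgbp in tumors at -1.61 in KO and -1.23 in WT, and Muc1 in WT tumors at 1.31.

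Set against day 15 colon, tumors of both genotypes had more Muc1. Of the 8 genes, Muc1 rose in KO tumors against KO day 15 colon, where 14.7% of all genes were called and 8.56% were higher. In WT tumors against WT day 15 colon, Muc1 rose and Zg16 fell, where 20% of all genes were called, 12.2% higher and 7.77% lower. Muc1 in KO tumors, with the values given above, stood against 33, 41, 47 and 20 at KO day 15, and 1 tumor fell within the day 15 range. The log2 difference was 1.48 ± 0.44 (SE, adjusted p 0.0213, limma). This KO call was lost in 4 of 24 alternatives. Among them were the code's letter as a block (adjusted p 0.138) and leaving out the day 15 arrays numbered 4 (adjusted p 0.0699). WT tumors of Muc1 stood against 43, 31, 48 and 25 at WT day 15, with every tumor above every day 15 array and a log2 difference of 2.01 ± 0.44 (SE, adjusted p 0.00107, limma), a 4.03-fold higher level. Zg16 in WT tumors stood against 8521, 8541, 9775 and 7526 at WT day 15, with only the highest tumor inside the day 15 range and a log2 difference of -0.86 ± 0.29 (SE, adjusted p 0.0317, limma). The Zg16 call was lost with the code's number as a block (adjusted p 0.119) and in 7 of 23 alternatives in all.

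Replicate 4 was the lowest of the 4 day 15 arrays for 8 of 8 genes in KO and for 8 of 8 in WT, and in KO it was the lowest of all 36 arrays for 5 genes. In KO day 15 colon, Atoh1 read 229, 258, 399 and 29, and Fcgbp read 1704, 2148, 2977 and 274. In WT day 15 colon, Atoh1 read 346, 306, 459 and 97, and Fcgbp read 2609, 2209, 3569 and 1239. The fourth value is replicate 4 in each case. The same arrays read 9049 in KO and 15952 in WT for the summed intensity of the 8 genes, the lowest of their groups, and 21459 and 13874 for the sum of 8 neutrophil genes, the highest, and the part of neutrophils in the low goblet readings was not tested.

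Without these 2 arrays, the counts of genes called in tumors against day 15 were larger. Since the arrays left out held the lowest day 15 values of all 8 genes, leaving them out raises the day 15 means by construction, and the counts are a description. In KO tumors 3 of 8 genes were called against KO day 15 colon, where 16.5% of all genes were. These were Tff3 at -0.33 (adjusted p 0.0462), Fcgbp at -1.33 (adjusted p 0.00322) and Atoh1 at -0.93 (adjusted p 0.0268), all lower (limma). Muc1 then had a log2 difference of 1.22 and an adjusted p of 0.0699. In WT tumors 4 of 8 genes were called, where 21.7% of all genes were. Tff3 fell by 0.34 (adjusted p 0.0286), Fcgbp by 1.40 (adjusted p 0.00125) and Zg16 by 0.93 (adjusted p 0.0268), and Muc1 rose by 1.75 (adjusted p 0.00564). Averaged over genotypes, 6 of 8 genes were called in tumors against day 15 without these arrays, where 31% of all genes were. With them 3 of 8 were called, where 31.8% of all genes were, 17.9% higher and 13.9% lower. The 6 were Tff3, Agr2, Fcgbp, Zg16 and Atoh1, lower, and Muc1, higher.

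At day 7 and day 15 no gene of the 8 was called against untreated colon within a genotype (limma). In KO the share of all genes called was 12.2% at day 7 and 0.813% at day 15, and in WT it was 1.66% and 3.38%, each against untreated colon. At an unadjusted p under 0.05, the count was 0 of 8 genes for KO day 7, beside 24.5% of all genes, and 2 of 8 for KO day 15, beside 16.4%. It was 0 of 8 for WT day 7, beside 12.7%, and 0 of 8 for WT day 15, beside 17.4%. Averaged over genotypes, 0 of 8 were called at day 7 by limma, where 9.04% of all genes were called, and 0 of 8 had an unadjusted p under 0.05, where 22.7% of all genes did. Fcgbp read 3938, 4306, 4186 and 4337 on the arrays labelled KO day 7, against 2841, 2757, 2761 and 2496 in untreated KO colon. All 4 lay above the untreated arrays, with a log2 difference of 0.68 ± 0.47 (SE, adjusted p 0.402, limma). Agr2 read 2569, 2634, 2629 and 2664 on the same arrays, all below the 3445, 3624, 3177 and 3368 of untreated KO colon, with a log2 difference of -0.32 ± 0.24 (SE, adjusted p 0.47, limma). When the spread came from these groups alone, both passed, Fcgbp with an adjusted p of 0.00011 and Agr2 with 0.00264, where 18.7% of all genes passed. The model over all arrays took its spread for these genes also from tumors and day 15 colon, where the arrays of a group differed more. Without replicates 1 and 2 labelled KO day 7, the log2 difference was 0.72 for Fcgbp (adjusted p 0.545) and -0.31 for Agr2 (adjusted p 0.642, limma). Other cell markers differed on the arrays labelled KO day 7 as well. Of 14 leukocyte markers 13 fell, with sums of 580 to 1275 on these arrays, against 2629 to 6454 in untreated KO colon. Of 11 genes of dividing cells 11 fell, with sums of 906 to 1195, against 3004 to 4436 in untreated KO colon. Low sums of the dividing-cell genes were shared by WT day 7, at 600 to 807, against 2484 to 3798 in untreated WT colon. The leukocyte sum at WT day 7 was 1067 to 3834, against 919 to 2288 in untreated WT colon. On the arrays labelled KO day 7 the smooth muscle sum was 24714 to 45573, against 21852 to 23837 in untreated KO colon. The part of these cells in the Fcgbp and Agr2 values was not tested.

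In WT day 7 colon, Atoh1 read 239, 539, 448 and 402, against 154, 247, 222 and 230 in untreated WT colon. One day 7 array, replicate 1, lay among the untreated values, and the log2 difference was 0.93 ± 0.53 (SE, adjusted p 0.477, limma). Fcgbp read 4057, 4486, 2561 and 3583 in WT day 7 colon, against 1883, 2966, 2609 and 2499 in untreated WT colon, with overlap. At day 15, Muc1 in KO colon lay below all untreated KO arrays, with a log2 difference of -1.73 ± 0.48 (SE, adjusted p 0.0753, limma). Averaged over genotypes, Muc1 fell at day 15 against untreated colon by 1.21 with an adjusted p of 0.0222 (limma), the call of 1 of 8 genes where 8.18% of all genes were called and 3.4% were lower. That call was lost without the 2 day 15 arrays that stood apart (-0.96, adjusted p 0.135) and without the 7 Krt5-high arrays (-0.82, adjusted p 0.128). Without the 2 day 15 arrays, Tff3 rose at WT day 15, by 0.46 with an adjusted p of 0.0274, where 4.12% of all genes were called.

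None of the 8 genes was called between KO and WT at any stage (limma). Of all genes, 2.28% were called in untreated colon, 0.298% at day 7, 0.222% at day 15 and 0.0526% in tumors. At an unadjusted p under 0.05, 1 of 8 genes passed at day 7, beside 11.5% of all genes. At the other stages 0 of 8 passed, beside 12.8% of all genes in untreated colon, 10.1% at day 15 and 2.47% in tumors. The gene at day 7 was Muc1, at 176, 70, 47 and 55 on the arrays labelled KO day 7, against 50, 39, 20 and 24 at WT day 7, with a log2 difference of 1.20 ± 0.48 (SE, adjusted p 0.287, limma). The highest value, 176, is the array labelled KO day 7 on which Il17rc was within the WT range. Without that array and replicate 2 the log2 difference was 0.62, with an adjusted p of 0.789 (limma). The difference between genotypes in the change from untreated colon was called for 0 of 8 genes at day 7, at day 15 and in tumors (limma). Of all genes, it was called for 2.37% at day 7, 0.0819% at day 15 and 0.784% in tumors. At an unadjusted p under 0.05 it passed for 0 of 8 genes at day 7, 0 of 8 at day 15 and 1 of 8, Muc1, in tumors, beside 15.5%, 7.59% and 8.25% of all genes at these stages.

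Spdef had lower means in KO than in WT at each stage, and no stage was called. It read 104, 101, 87 and 99 in untreated KO colon, against 330, 119, 93 and 145 in untreated WT colon. It read 80, 85, 70 and 89 on the arrays labelled KO day 7, against 73, 175, 120 and 122 at WT day 7. In day 15 colon it read 116, 128, 141 and 28 in KO, against 137, 175, 224 and 58 in WT. KO and WT overlapped at every stage. The log2 differences were -0.61 in untreated colon, -0.55 at day 7, -0.68 at day 15 and -0.58 in tumors. Leaving out the 7 Krt5-high arrays, among them the untreated WT array that read 330, took the untreated difference to -0.09. The tumor difference was then -0.47, and the day 7 difference was larger, at -0.92. Averaged over the 4 stages the difference was -0.60 ± 0.22 (SE) with a raw p of 0.0086 in the limma fit and an adjusted p of 0.216. Without the Krt5-high arrays this average was -0.54 (adjusted p 0.412, limma). In that averaged comparison, added after the data were seen, 0 of 8 genes were called, where 1.42% of all genes were. An unadjusted p under 0.05 was found for 1 of 8, Spdef, and for 10.8% of all genes. For the secreted products and Agr2 the same comparison gave -0.14 for Tff3, -0.18 for Agr2, -0.18 for Fcgbp and 0.00 for Zg16, with 95% intervals of -0.40 to 0.11, -0.41 to 0.06, -0.63 to 0.28 and -0.30 to 0.31 on the log2 scale.

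The order of the group means differed between genes, and in every gene the groups next to each other in that order overlapped in their arrays. Fcgbp was highest on the arrays labelled KO day 7, at a mean of 4192 ± 181 (SD, n = 4), and lowest in KO tumors. Atoh1 was highest at WT day 7, at 407 ± 126 (SD, n = 4), and lowest in KO tumors, at 160 ± 69 (SD, n = 6). Tff3 was highest at WT day 7 and lowest in KO tumors, Agr2 highest at WT day 7 and lowest on the arrays labelled KO day 7, and Zg16 highest at WT day 15 and lowest in WT tumors. Muc1 had another order, highest in WT tumors at 160 ± 72 (SD, n = 6) and lowest at WT day 7 at 33.2 ± 13.8 (SD, n = 4). Muc4 lay between 10 and 52 on all arrays, close to background, and its groups cannot be ordered. It ran from 12 to 17 in KO tumors, against 18, 22, 27 and 19 in untreated KO colon, a log2 difference of -0.57 with an adjusted p of 0.214 (limma).

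Within groups, 6 of the genes varied together from array to array. With each group's mean removed, Pearson's r of normalized log2 values over the 36 arrays was 0.94 for Tff3 and Atoh1, 0.84 for Fcgbp and Atoh1 and 0.83 for Agr2 and Spdef. Over the 15 pairs of Tff3, Agr2, Fcgbp, Zg16, Spdef and Atoh1, r lay between 0.49 and 0.94 with a median of 0.73. Without replicate 4 at day 15 of both genotypes, the median over the remaining 34 arrays was 0.61, with a range of 0.27 to 0.79. Muc4, close to background, had an r of 0.40 to 0.54 with these 6 genes over 36 arrays and of 0.24 to 0.48 over 34. The 7 pairs with Muc1 lay between -0.33 and 0.22 over 36 arrays and between -0.48 and 0.09 over 34. The points of each pair share an array, its tissue make-up and its normalization.

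**Figure D3:**
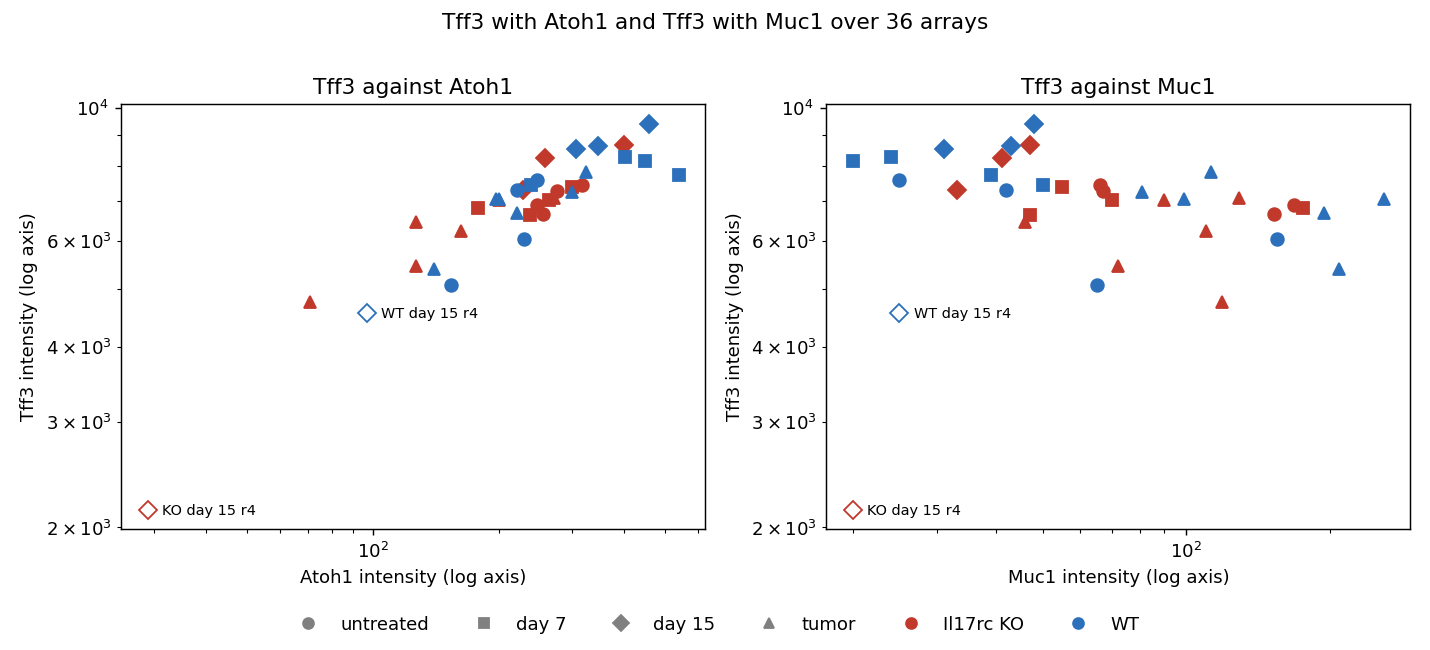
Deposited intensity of Tff3 against Atoh1 (left) and against Muc1 (right) on the 36 arrays, both axes logarithmic, with red for KO, blue for WT and a shape for each stage. Tff3 and Atoh1 lie along a rising band that ends at KO day 15 replicate 4, with 2139 for Tff3 and 29 for Atoh1, and Tff3 and Muc1 form no such band.

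**Figure D4:**
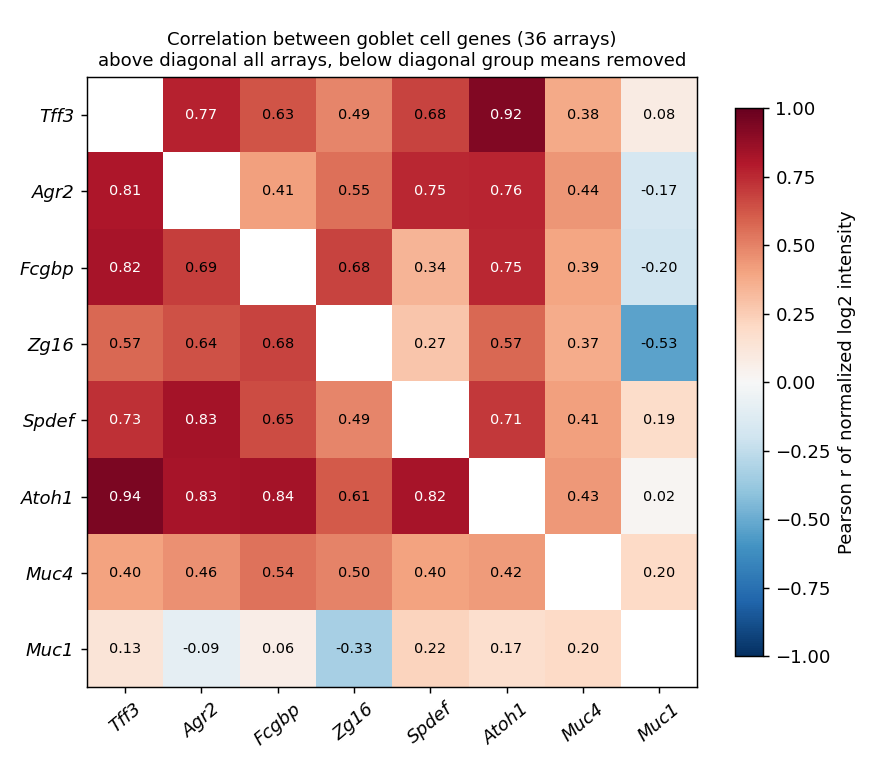
Pearson's r between the 8 genes over 36 arrays, with normalized log2 values above the diagonal and values with group means removed below it. Tff3 and Atoh1 have the highest r in both, 0.92 and 0.94, and Zg16 and Muc1 the lowest, -0.53 and -0.33.

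Among all measured genes outside the 8, those whose pattern over the 36 arrays was most like each were named by Pearson's r of normalized log2 values. Atoh1 was followed by Hpd at 0.95, Hepacam2 at 0.95 and Sval1 at 0.94. Tff3 was followed by Sval1 at 0.94 and Agr2 by Cgref1 at 0.92. Spdef was followed by Bace2 at 0.85 and Galnt12, an enzyme that starts mucin O-glycans, at 0.82. Zg16 was followed by Insl5, a hormone of colonic enteroendocrine cells, at 0.91, and Fcgbp by Pgap4 and Fam234a at 0.94 and Mep1a, a brush border protease, at 0.94. Muc1 was followed by Ephb3, a receptor of the crypt base, at 0.83, and Muc4 by no gene above 0.57.

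Genes that act around the 8 were read from lists chosen with earlier results known. Their counts in tumors against untreated colon stand beside the shares of all genes given above, 10.8% higher and 9.92% lower in KO and 12.6% higher and 10.2% lower in WT. Among 10 transcription factors of secretory cells, 3 rose and 3 fell in KO tumors against untreated KO colon, and 4 rose and 2 fell in WT tumors against untreated WT colon. Klf4, which promotes goblet cell differentiation, fell by 1.63 on the log2 scale in KO and by 1.58 in WT (adjusted p 1.65e-06 in KO and 2.29e-06 in WT, limma). Cdx2, an intestinal identity factor, rose by 2.06 in KO and by 2.54 in WT (adjusted p 0.0183 in KO and 0.00371 in WT). Creb3l1 fell by 1.53 in KO (adjusted p 0.00034) and Foxa3 rose by 1.41 in WT (adjusted p 0.00547). Without the 7 Krt5-high arrays, 2 rose and 2 fell in KO, and 0 rose and 2 fell in WT, where 19.8% of all genes were called in KO and 18.2% in WT. The tumor counts of the lists that follow include these arrays, untreated WT arrays among them. Counts without them are not given for those lists.

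Of 12 measured members of the Notch pathway, which restrains Atoh1, 1 rose and 1 fell in KO tumors and 0 rose and 2 fell in WT tumors, each against untreated colon. Of all genes, 10.8% rose and 9.92% fell in KO tumors, and 12.6% rose and 10.2% fell in WT tumors. The ligand Dll1, which secretory progenitors present to their neighbours, had mean intensities of 37.5 in KO tumors and 74.8 in untreated KO colon, a log2 difference of -1.01 ± 0.18 (SE, adjusted p 9.24e-05, limma). In WT it had 30 in tumors and 64 in untreated colon, a log2 difference of -1.09 ± 0.18 (SE, adjusted p 3.35e-05, limma). All tumors lay below all untreated arrays in each genotype. The Notch target Hey1 rose by 0.73 in KO tumors and the Notch target Nrarp fell by 0.80 in WT tumors.

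Other goblet cell products and the enzymes that put sugars on mucins moved in both directions in tumors. Of 13 measured products, 1 rose and 3 fell in KO tumors and 2 rose and 2 fell in WT tumors, against untreated colon. The tumor counts of this paragraph stand beside the same shares of all genes as the Notch counts, and the Krt5-high arrays are included. Muc3, a membrane mucin of colonocytes and goblet cells, fell by 1.84 in KO and by 1.69 in WT. Retnlb, a resistin-like peptide with antibacterial action made by goblet cells, rose by 6.12 in WT tumors, with mean intensities of 1273 in WT tumors and 12 in untreated WT colon, which is at background. Of 21 enzymes of mucin O-glycosylation, 1 rose and 8 fell in KO tumors and 3 rose and 5 fell in WT tumors. The sialyltransferase St3gal4 fell by 2.63 in KO and by 1.83 in WT, and the fucosyltransferase Fut4 by 1.91 in KO and by 1.37 in WT. These enzymes also act in other cells. Of 18 genes for protein folding in the endoplasmic reticulum, which goblet cells share with other secretory cells, 5 rose in KO tumors and 11 in WT tumors with 0 lower in each. Their summed intensity ran from 14391 to 18274 in KO tumors, against 13548 to 14458 in untreated KO colon. In WT it ran from 14377 to 19549 in tumors, against 10542 to 12891 in untreated colon. On the arrays labelled KO day 7, 2 of the 18 rose and 8 fell against untreated KO colon, led by Sdf2l1 at -1.67, where 5.64% of all genes rose and 6.58% fell.

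Markers of other cell types moved beside the goblet genes in tumors, with the Krt5-high arrays included. Against untreated colon, 10.8% of all genes rose and 9.92% fell in KO tumors, and 12.6% rose and 10.2% fell in WT tumors. Of 13 markers of absorptive colonocytes, 1 rose and 7 fell in KO tumors and 1 rose and 8 fell in WT tumors. Their summed intensity ran from 4813 through a median of 10488 to 15460 in KO tumors, against 18050 to 23419 in untreated KO colon, and from 5765 through 9696 to 22852 in WT tumors, against 16020 to 28482 in untreated WT colon. Of 12 smooth muscle markers, 9 fell in KO tumors and 12 in WT tumors. Of 8 neutrophil markers, 5 rose in tumors of each genotype, with sums from 2486 through a median of 3391 to 7457 in KO tumors, against 96 to 121 in untreated KO colon. In WT tumors the neutrophil sum ran from 1872 to 7836, against 103 to 3684 in untreated WT colon. Of 5 markers of Paneth cells, secretory cells of the small intestine, 4 rose in tumors of each genotype. Their sum was 3054 to 9095 in KO tumors, against 52 to 55 in untreated KO colon, and 1135 to 11213 in WT tumors, against 47 to 54 in untreated WT colon. Of 11 enteroendocrine markers, 2 fell in tumors of each genotype, with sums of 665 to 2609 in KO tumors, against 2665 to 4220 in untreated KO colon, and 987 to 4814 in WT tumors, against 1577 to 4212 in untreated WT colon. Of 14 leukocyte markers, 1 rose in KO tumors and 12 in WT tumors. Their sum ran from 5622 to 9952 in KO tumors, against 2629 to 6454 in untreated KO colon. In WT the leukocyte sum ran from 7073 to 10733 in tumors, against 919 to 2288 in untreated colon, so the untreated levels differed more than the tumor levels. Of 8 tuft cell markers 1 rose in tumors of each genotype. For the 8 goblet genes the summed intensity ran from 9534 through 17680 to 18711 in KO tumors, against 20711 to 22656 in untreated KO colon, and from 11458 through 16928 to 23356 in WT tumors, against 15746 to 22903 in untreated WT colon. The part of tissue make-up in the lower Fcgbp and Zg16 was not tested.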

How the data were processed

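Colon RNA of 36 samples was hybridised to arrays of the Affymetrix type HT MG-430 PM, with 1 array for each. The authors deposited intensities on a linear scale, as whole numbers from 4 to 14185 over 45037 probe sets, and how they corrected background, normalized and summarized probes is not given in the sources used here. Depth does not apply to arrays, and the number of arrays limits the precision. GEO's platform annotation gave 28898 probe sets exactly 1 gene, 551 several and 15588 none, and 28689 matched RefSeq by gene identifier. The brightest probe set of each gene was kept, which left 17097 genes. Values were log2(intensity + 1), quantile normalized. A limma 3.58.1 model in R 4.3.3 had 1 mean for each of 8 groups over 36 arrays, with a trend in the prior variance, and the Benjamini-Hochberg adjustment ran over all genes of a comparison, at a threshold of 0.05. There were 15 comparisons, and 5 averaged over genotypes or stages were added after the data were seen. The fit was tested on simulated data.

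The 9 genes and the other lists were chosen with earlier results of these data known. Named besides the 9 were up to 3 called genes of each list with the largest difference, the genes most like each of the 9, Il17rc, Krt5, S100a8 and Epcam. The labels do not say which samples share a cage or batch, so the p-values here reflect only how these samples differ, which may be technical. Same-numbered arrays of 2 groups deviated together in every pair for WT day 7 with untreated WT (r 0.16 to 0.40, 4 pairs). The same held for KO day 15 with WT day 15 (r 0.17 to 0.80, 4 pairs). In these comparisons the replicate block gave 0 called genes of the 8, as without it. In each other comparison the lowest r of a pair was 0.001 or less. Alternatives changed the pseudocount, the normalization, the filter on dim genes, the probe set rule, the variance model, the groups fitted, the blocks and the arrays left out.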

Additional observations from a re-analysis of the deposited data

Results flagged for a closer look

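Among 64 groups of 4 or 6 arrays tested with Dixon's criterion, where chance alone flags about 1 in 20, 4 held an array far from the others. Fcgbp read 2654 in WT tumor replicate 6, and the next highest WT tumor read 1261. Zg16 read 4824 in KO day 15 replicate 4, the array with the highest S100a8, and the next lowest KO day 15 array read 9045. Zg16 read 6712 in WT day 7 replicate 1, one of the Krt5-high arrays, and the next lowest WT day 7 array read 8778. Muc4 read 14 in WT day 7 replicate 3, close to background, and the next lowest read 20.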

How the results depend on the processing

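Lower Fcgbp in KO tumors against untreated KO colon kept its call in all 23 alternatives (adjusted p 0.000888 to 0.0359), as did higher Muc1 in WT tumors against WT day 15 (0.000466 to 0.00726). In WT tumors against untreated WT colon, Fcgbp lost its call in 10 of 23 (adjusted p 0.00721 to 0.0907) and Muc1 in 9 of 23 (0.0025 to 0.17). The cause was not tested. Single arrays whose omission ended the WT calls against untreated colon were untreated replicates 2, 3 and 4 and tumor replicates 2, 3, 4 and 5 for Fcgbp (-1.22 to -1.11), and untreated replicates 2 and 3 and tumor replicates 3, 4 and 5 for Muc1 (0.91 to 1.22). Zg16 in WT tumors against WT day 15 lost its call without day 15 replicates 1, 2 or 3 or tumor replicates 3 or 4 (-0.86 to -0.65), and Muc1 in KO tumors against KO day 15 without day 15 replicates 1 or 4 (1.42 and 1.22). The averaged Zg16 call in tumors against untreated colon was lost in 13 of 33 alternatives, the averaged Fcgbp call against day 15 in 11 of 34 and the averaged Muc1 call at day 15 in 9 of 30. Of the 8 genes, the number called with only the compared groups fitted was 2 for KO day 7 and 3 for KO tumors, against untreated KO colon, 1 for WT tumors against untreated WT colon, and 1 for WT tumors against WT day 15. Averaged over genotypes it was 1 for day 7, 0 for day 15 and 1 for tumors, against untreated colon. In the same fits, 18.7% of all genes were called for KO day 7, 24.1% for KO tumors, 20.9% for WT tumors, 13.5% for WT tumors against WT day 15 and, averaged, 11.3% for day 7, 3.71% for day 15 and 36% for tumors. For WT tumors against untreated WT colon, the replicate block gave 1 (22% of all genes), the letter (14%) and the number (16.5%) of the title code as blocks gave 0, and leaving out Krt5-high arrays gave 1. The Muc1 difference there was 1.29 with the replicate block (adjusted p 0.0576). The block also called Fcgbp in WT tumors against WT day 15 (-1.30, adjusted p 0.0295) and changed no other count of calls by over 1.5 times. The letter as a block gave 0 for KO tumors against KO day 15, and the number as a block gave 1 for WT tumors against WT day 15. For averaged day 15 against untreated colon, both blocks and leaving out the Krt5-high arrays gave 0, and for averaged tumors against untreated colon both blocks gave 1. Without the day 15 arrays numbered 4, the counts were 1 for WT day 15 against untreated WT colon, 3 for KO tumors and 4 for WT tumors against day 15, and 6 for averaged tumors against day 15. Tff3 then changed sign in KO tumors against KO day 15 (-0.33), in averaged day 15 against untreated colon (0.30) and in averaged tumors against day 15 (-0.34). Leaving out 1 array at a time gave 0 to 1 for KO day 15 against untreated KO colon, 0 to 2 for WT tumors against untreated WT colon, 0 to 1 for KO tumors and 1 to 3 for WT tumors against day 15, and, averaged, 0 to 1 for day 15 and 1 to 2 for tumors against untreated colon and 2 to 3 for tumors against day 15. Muc4 and the untreated levels of Retnlb were near background, which limits their differences.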

Other observations

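A second probe set of Zg16, examined after the data were seen, gave a larger difference in WT tumors against WT day 15 colon, -1.44 on the log2 scale with an adjusted p of 0.0142 (limma). The brightest probe set gave -0.86. The second probe set of Agr2, like the brightest, was not called in tumors against untreated colon, with -0.34 in KO (adjusted p 0.366) and 0.05 in WT (adjusted p 0.917).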
